A study of Mus musculus with 4 samples.

Results

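The nuclear genes of mitochondrial oxidative phosphorylation were compared between livers of SREBP1c knockout mice (KO) and of wild-type mice (WT). Genes were taken from the deposited table by symbol: those starting with Nduf, Uqcr, Atp5, Cox4, Cox5, Cox6, Cox7 or Cox8, and the 4 Sdh genes Sdha to Sdhd. Of 23920 genes listed, 92 matched, and 86 of these had a mean of at least 1 FPKM (sequenced fragments scaled to transcript length and to the depth of the library) over the 4 libraries. The 86 genes comprise 43 of complex I, 4 of complex II, 8 of complex III, 14 of complex IV and 17 of complex V. The remaining 6 all belong to complex IV and are low or at 0. All mice were C57BL/6 males aged 12 weeks that had been refed for 12 h after a fast of 24 h, so KO and WT shared strain, sex, age and feeding. The genotypes are given as SREBP1c KO and SREBP1c WT, without the allele or how it was made. There were 2 KO and 2 WT libraries of total RNA from whole liver. Nothing in the labels ties a library to its own mouse, and the p-values below therefore describe the spread among 4 libraries that may be technical replicates.

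Oxidative phosphorylation is the chain of inner-membrane complexes that passes electrons from NADH and succinate to oxygen and uses the resulting proton gradient to make ATP. Complex I oxidises NADH, complex II oxidises succinate, complex III hands electrons from ubiquinol to cytochrome c, complex IV reduces oxygen, and complex V is the ATP synthase. In each complex a conserved core does the chemistry, and in all but complex II many small accessory subunits surround it. Most subunits are encoded in the nucleus, while some core subunits of complexes I, III, IV and V are encoded by mitochondrial DNA. Hepatocytes are rich in mitochondria, which supply the ATP for gluconeogenesis, urea synthesis and lipid synthesis. SREBP1c, a product of Srebf1, is the transcription factor that raises fatty acid synthesis genes after feeding.

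The genotype labels were checked first. Srebf1, the targeted gene, had 8.63 and 6.97 FPKM in the KO libraries, against 63.7 and 58.2 FPKM in the WT libraries (log2 difference -2.82, SE 0.13, limma adjusted p = 0.00172). Its single row does not separate SREBP1c from SREBP1a. Steps in the low values implied between 20.5 and 22.8 M fragments per library. Hepatocyte markers were high in all libraries, with summed levels of 19229 and 19158 FPKM in KO and 19238 and 21524 FPKM in WT over 7 genes, although 1 of the 7, Alb, was listed at 0 throughout. KO replicate 2 stood apart. Its root mean square log2 difference over all tested genes was 0.36 to KO replicate 1, 0.39 to WT replicate 1 and 0.34 to WT replicate 2, against 0.24 between the WT libraries. The sum of 4 Kupffer cell and macrophage markers was 56.6 and 99.4 FPKM in KO and 76.2 and 61.2 FPKM in WT, highest in KO replicate 2. WT replicate 1 held traces of striated muscle RNA, which are given with the muscle isoforms of complex IV.

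No oxidative phosphorylation gene differed between KO and WT past the threshold. With limma on log2(FPKM + 1), 0 of the 86 genes passed at an adjusted p of 0.05 in either direction, and the smallest adjusted p was 0.571. Over all 9820 genes tested, 7 passed, or 0.0713% (0.0102% higher and 0.0611% lower in KO). At an unadjusted p under 0.05 limma gave 1 of the 86 genes, Ndufs1, against 7.75% of all genes tested. The differences were small. They ran from -0.32 to 0.21 on the log2 scale, 57 negative and 29 positive, with a median of -0.064, beside a median of 0.017 over all genes tested. The half-width of the 95% interval of a member's difference was 0.32 in the median. That interval is not adjusted over genes, and the adjusted threshold was missed by larger differences, such as that of 1.17 for Ucp2 described with the carriers. For the 74 core and accessory subunits, which leave out muscle and testis isoforms, assembly factors and other non-subunits, all 95% intervals lay between -0.66 and 0.53. Of the 86 genes, 23 (26.7%) were lower and 6 (6.98%) higher in both KO libraries than in either WT library, and 57 overlapped. Over all genes tested the groups did not overlap for 38.7%, with 22.4% higher and 16.4% lower in both KO libraries. In whole liver, fewer cells of a type and less RNA per cell cannot be told apart.

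The 2 KO libraries lay on opposite sides of WT. Relative to the WT mean, KO replicate 1 had a median of 0.067 over the 86 genes and KO replicate 2 one of -0.15, against -0.017 in WT replicate 1 and 0.017 in WT replicate 2. KO replicate 2 was the lowest of the 4 libraries for 62 of the 86 genes, and KO replicate 1 was the highest for 50. Over all 9820 genes tested these counts were 2639 and 2620. Among the 1328 genes with a mean of at least 50 FPKM they were 604 and 564. The medians of those 1328 genes relative to the WT mean were 0.056 in KO replicate 1 and -0.045 in KO replicate 2, the same directions as for the members. The summed level of the 86 genes was 21847 and 18738 FPKM in KO, against 20309 and 20945 FPKM in WT. This was 3.97% and 3.48% of all FPKM in KO, and 3.78% and 3.86% in WT. The sign of the median difference turned with the KO library used: with KO replicate 2 left out it was 0.067, and with KO replicate 1 left out it was -0.15. Across all 4 libraries the highest exceeded the lowest by 1.20-fold for the median member, beside 1.26-fold for the median gene tested and 1.23-fold for genes with a mean of at least 50 FPKM.

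**Figure D1:**
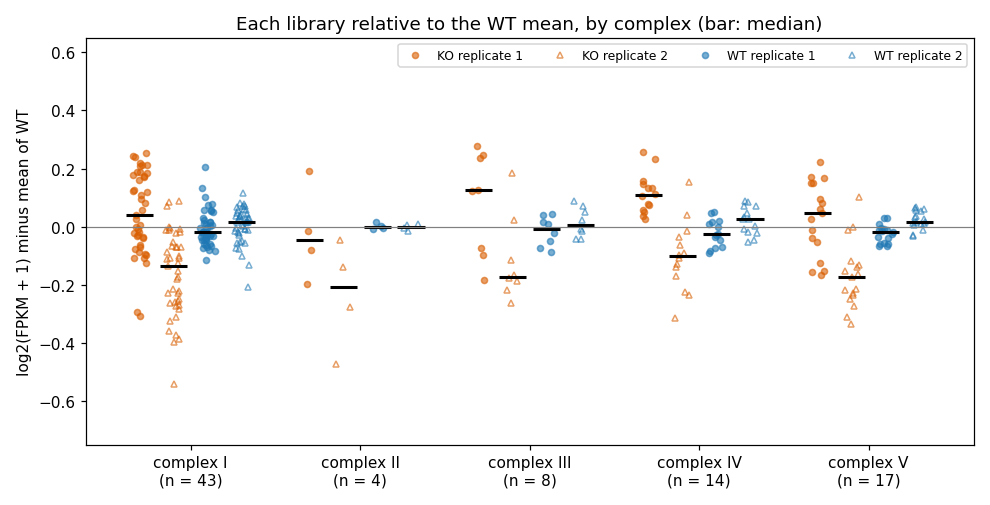
Level of each gene in each library, as log2(FPKM + 1) minus the mean of the 2 WT libraries (vertical axis), by complex; each point is 1 gene, orange is KO, blue is WT, circles are replicate 1, triangles replicate 2 and bars medians. KO replicate 2 has negative medians in all 5 complexes, while KO replicate 1 has positive medians in complexes I, III, IV and V and a negative one (-0.047) in complex II; the WT values are symmetric about 0 by construction.

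FPKM is scaled to transcript length, so levels can be set side by side between genes, with limits. Levels are less certain for short transcripts and where reads can be shared. The median transcript ran from 614 nt in complex IV to 2065.5 nt in complex II. A single gene's level can mislead, as the hepatocyte marker Alb was listed at 0 in all libraries. The median level over 4 libraries was 119 FPKM for genes of complex I, 184 for complex II, 345 for complex III, 417 for complex IV and 292 for complex V. These medians include assembly factors, other non-subunits and muscle and testis isoforms. Without them the median was 131 FPKM for complex I, 447 for complex IV and 400 for complex V. Those of complexes II and III were unchanged, so complex V then lay above complex III. Except in complex II, the range within a complex was wider than these steps between complexes. The 4 genes of complex II lay between 169.5 and 234 FPKM. In complex V the levels ran from 4.02 FPKM for Atp5s, a regulatory factor and no subunit, to 829.6 FPKM for Atp5k, subunit e of the membrane part. Atp5g3, which encodes subunit c of the rotor ring, and Ndufa4, a subunit of complex IV despite its complex I name, came close behind with means of 775 and 818 FPKM. These 3 cannot be ordered, since their libraries overlap: Atp5k had 952 and 671 FPKM in KO, against 812 and 884 FPKM in WT, and Ndufa4 had 886 and 744 FPKM in KO, against 781 and 860.3 FPKM in WT. The highest gene of complex I was Ndufb9 at 421 FPKM and the lowest its assembly factor Ndufaf5 at 2.44 FPKM. The lowest complex I subunit was Ndufa11, at 16.6 FPKM.

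**Figure D2:**
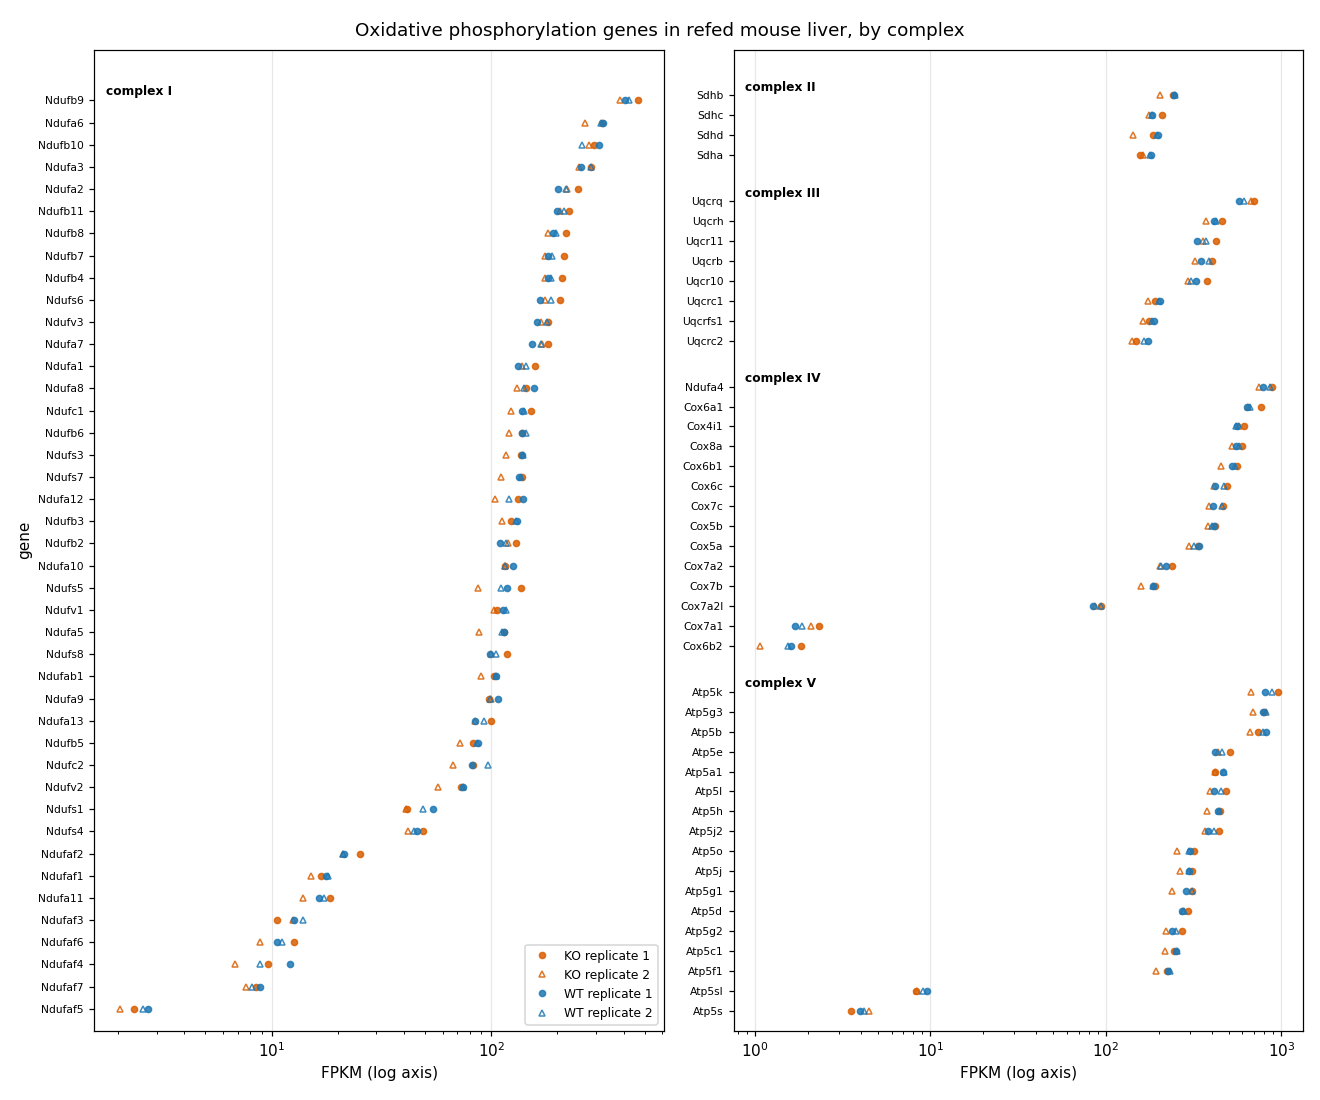
FPKM of 85 of the 86 genes in each library (horizontal log axis), grouped by complex and sorted by mean; orange is KO, blue is WT, filled circles are replicate 1 and open triangles replicate 2. KO replicate 2 is the lowest library for 62 of the 86 genes and KO replicate 1 the highest for 50. Among the 1328 genes with a mean of at least 50 FPKM these counts are 604 and 564. The spread between libraries is small beside the differences in level between genes.

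Complex I, the NADH dehydrogenase, is assembled around a core encoded partly in the nucleus. Of the nuclear core subunits described here, Ndufs1, Ndufv1, Ndufv2 and Ndufs3 were below both WT libraries in both KO libraries, and Ndufs7 and Ndufs8 overlapped. Over all genes tested, 16.4% were lower in both KO libraries. Ndufs1 (gene 227197; chromosome 1, 63143592 to 63176822, mm10), the largest iron-sulfur subunit of the input arm, had 41.5 and 41.0 FPKM in the KO libraries, against 54.5 and 48.8 FPKM in the WT libraries. The KO libraries were alike and both below WT, a mean 20.1% lower (41.2 ± 0.330 FPKM in KO and 51.6 ± 4.02 FPKM in WT (SD, n = 2 each)). The log2 difference was -0.31 with an SE of 0.11 and a 95% interval of -0.58 to -0.048, at an unadjusted p of 0.0279 and a limma adjusted p of 0.571. Ndufv1, the flavoprotein that binds NADH, had 106 and 103 FPKM in the KO libraries, against 113 and 117 FPKM in the WT libraries (log2 difference -0.13, SE 0.11, limma adjusted p = 0.809). Its neighbour in the enzyme, the iron-sulfur protein Ndufv2, had 72.9 and 57.3 FPKM in the KO libraries, against 74.3 and 74.6 FPKM in the WT libraries, with KO replicate 2 well below the other 3. For Ndufs3, another matrix-arm subunit, KO replicate 1 nearly reached WT, with 137 and 116 FPKM in the KO libraries, against 138 and 139 FPKM in the WT libraries. The KO libraries of Ndufv2 and Ndufs3 were further apart than their WT libraries. Ndufs7, the iron-sulfur subunit next to the quinone site, had 139 and 110.3 FPKM in the KO libraries, against 133 and 136 FPKM in the WT libraries, and KO replicate 1 was the highest library. The iron-sulfur subunit Ndufs8 had 118 and 99.8 FPKM in the KO libraries, against 98.3 and 105 FPKM in the WT libraries, where KO replicate 1 also exceeded the rest.

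The 29 accessory subunits of complex I showed no common direction. Of these, 13 had a positive and 16 a negative difference (median -0.014), and none passed the limma threshold. In both KO libraries 3 (10.3%) were higher and 4 (13.8%) lower, beside 22.4% and 16.4% of all genes tested. Ndufa2 was the highest of the 3 by difference, with 248 and 222 FPKM in the KO libraries, against 200.2 and 218 FPKM in the WT libraries (log2 difference 0.16, SE 0.13, limma adjusted p = 0.798). Ndufb2 had 129 and 119 FPKM in the KO libraries, against 109.7 and 117 FPKM in the WT libraries, and Ndufa7, summed over 4 transcript rows, had 181 and 171 FPKM in the KO libraries, against 153 and 168 FPKM in the WT libraries. For these 3 the margin between the lower KO library and the higher WT library was only a few FPKM. On the lower side Ndufb3 had 122 and 112 FPKM in the KO libraries, against 132 and 130.2 FPKM in the WT libraries, and Ndufb5 had 82.7 and 72.3 FPKM in the KO libraries, against 87.2 and 85.8 FPKM in the WT libraries. Ndufab1, the mitochondrial acyl carrier protein that also serves lipoic acid synthesis, had 103 and 90.0 FPKM in the KO libraries, against 105 and 105 FPKM in the WT libraries. Ndufa10 had 115 and 115 FPKM in the KO libraries, against 126 and 116 FPKM in the WT libraries, the KO libraries lying just under the lower WT library. The largest ratio of the highest to the lowest library among accessory subunits, 1.56, was that of Ndufs5, with 136 and 87.1 FPKM in the KO libraries, against 118 and 110.2 FPKM in the WT libraries, where the 2 KO libraries were the extremes.

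The 7 assembly factors Ndufaf1 to Ndufaf7, which help to build complex I and do not stay in it, were expressed at 2.44 to 22.3 FPKM, below all subunits of complex I except Ndufa11. Of these, 6 had a negative difference (median -0.16), and none passed. In both KO libraries 3 of the 7 (42.9%) were lower and 0 higher, beside 16.4% and 22.4% of all genes tested. Ndufaf5 had 2.37 and 2.05 FPKM in the KO libraries, against 2.75 and 2.60 FPKM in the WT libraries (log2 difference -0.20, SE 0.11, limma adjusted p = 0.723), Ndufaf3 had 10.6 and 12.6 FPKM in KO, against 12.7 and 13.8 FPKM in WT, and Ndufaf1 had 16.8 and 15.1 FPKM in KO, against 17.6 and 18.1 FPKM in WT. Only Ndufaf2 had a positive difference (0.11), where only KO replicate 1 lay above WT, with 25.3 and 21.1 FPKM in the KO libraries, against 21.4 and 21.2 FPKM in the WT libraries.

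Complex II, succinate dehydrogenase, also belongs to the citric acid cycle and is wholly encoded in the nucleus. It had the most negative median of the 5 complexes, -0.16, and 3 of its 4 genes were lower in both KO libraries, beside 16.4% of all genes tested. Sdha, the flavoprotein that oxidises succinate (chromosome 13, 74322255 to 74350240), had 157 and 163 FPKM in the KO libraries, against 181 and 177 FPKM in the WT libraries (159.7 ± 4.46 FPKM in KO and 179 ± 2.85 FPKM in WT (SD, n = 2 each); log2 difference -0.17, SE 0.11, limma adjusted p = 0.758). Both KO libraries lay below WT by more than the replicates of either group differed. Sdhb, the iron-sulfur subunit, had 242.5 and 202.2 FPKM in the KO libraries, against 243.5 and 246.5 FPKM in the WT libraries, with KO replicate 1 within 1% of WT replicate 1. Sdhd, a membrane anchor, had 186 and 142 FPKM in the KO libraries, against 198 and 197 FPKM in the WT libraries (log2 difference -0.28, SE 0.16, limma adjusted p = 0.729), where KO replicate 2 was far below the other 3. The other anchor, Sdhc, had 209 and 177 FPKM in the KO libraries, against 182 and 183 FPKM in the WT libraries and overlapped. None of the 4 passed the limma threshold, and the complex II median was -0.047 without KO replicate 2.

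Complex III, the cytochrome bc1 complex, split by subunit. Its 2 large core proteins and the Rieske protein were lower in both KO libraries, while the small subunit Uqcrq was higher in both. Of its 8 genes this was 37.5% lower and 12.5% higher, beside 16.4% and 22.4% of all genes tested. Uqcrc2, core protein 2 (chromosome 7, 120635189 to 120659523), had 149 and 141 FPKM in the KO libraries, against 174 and 164 FPKM in the WT libraries (log2 difference -0.22, SE 0.11, limma adjusted p = 0.698; 95% interval -0.50 to 0.055). Uqcrc1, its partner, had 189.7 and 175 FPKM in the KO libraries, against 204 and 202 FPKM in the WT libraries (log2 difference -0.16, SE 0.12, limma adjusted p = 0.785). Uqcrfs1, the Rieske iron-sulfur protein that takes electrons from ubiquinol, had 176 and 163 FPKM in the KO libraries, against 187 and 183 FPKM in the WT libraries (log2 difference -0.12, SE 0.11, limma adjusted p = 0.834). For all 3 the KO and WT ranges were apart, and none passed. Uqcrq (chromosome 11, 53427922 to 53430831) had 698 and 673 FPKM in the KO libraries, against 572 and 614 FPKM in the WT libraries, a mean 15.6% higher (log2 difference 0.21, SE 0.13, limma adjusted p = 0.747; 95% interval -0.11 to 0.53). Uqcrq is the member nearest to the targeted gene, 6.77 Mb from Srebf1 on chromosome 11. The other members on that chromosome lie 35.8 to 55.5 Mb away, and their groups overlapped: Atp5g1 at -0.13, Atp5h at -0.10 and Uqcr10 at 0.067 on the log2 scale. Whether position bears on Uqcrq was not tested. The small subunits Uqcr11, Uqcr10, Uqcrb and Uqcrh also overlapped, with KO replicate 1 the highest library of each. For Uqcr11 the values were 426 and 357 FPKM in the KO libraries, against 330.4 and 374 FPKM in the WT libraries.

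Complex IV, cytochrome c oxidase, had the median closest to 0, -0.015 over 14 genes. None was lower in both KO libraries, and 2 (14.3%) were higher in both, Cox4i1 and Cox7a1. Over all genes tested, 16.4% were lower and 22.4% higher in both. Cox4i1, the general isoform of subunit 4, through which ATP inhibits the enzyme, had 610.0 and 572 FPKM in the KO libraries, against 560.2 and 553 FPKM in the WT libraries (591 ± 27.1 FPKM in KO and 557 ± 5.16 FPKM in WT (SD, n = 2 each); log2 difference 0.085, SE 0.13, limma adjusted p = 0.901). The matrix-side subunits overlapped between the groups. Cox5a had 334 and 299 FPKM in the KO libraries, against 338 and 317 FPKM in the WT libraries, and Cox5b had 420.1 and 379.8 FPKM in the KO libraries, against 411 and 401 FPKM in the WT libraries. KO replicate 1 was the highest library for 13 of the 14 genes and KO replicate 2 the lowest for 10. Among the 1328 genes with a mean of at least 50 FPKM these counts were 564 and 604. In complex IV the 2 KO libraries differed most for Ndufa4 and Cox6a1 in FPKM. Cox6a1 had 763 and 643 FPKM in the KO libraries, against 638 and 661 FPKM in the WT libraries. Cox7a2l, which encodes the supercomplex factor SCAF1 that links complexes III and IV, had 93.3 and 86.4 FPKM in the KO libraries, against 84.2 and 93.2 FPKM in the WT libraries and likewise overlapped.

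Several complex IV subunits exist as a liver or general form and a form of heart and skeletal muscle, lung or testis, and the liver form made up nearly all of each pair. The muscle form Cox7a1 had 2.31 and 2.08 FPKM in the KO libraries, against 1.68 and 1.86 FPKM in the WT libraries (log2 difference 0.21, SE 0.11, limma adjusted p = 0.701), or 0.963% and 1.01% of the sum with Cox7a2 in KO and 0.756% and 0.896% in WT. Its liver counterpart Cox7a2 had 238 and 204 FPKM in the KO libraries, against 221 and 206 FPKM in the WT libraries. The muscle forms Cox6a2 and Cox8b did not reach 1 FPKM. Cox6a2 had 0.0844 and 0.185 FPKM in the KO libraries, against 0.337 and 0.0926 FPKM in the WT libraries, beside 676 FPKM on average for the liver form Cox6a1. Cox8b had 0.427 and 0.470 FPKM in the KO libraries, against 0.855 and 0.472 FPKM in the WT libraries, beside 562 FPKM for Cox8a. Cox6a2 and Cox8b were highest in WT replicate 1, and so were striated muscle markers. Tnnt3, a fast troponin T, had 0 and 0.108 FPKM in the KO libraries, against 2.87 and 0 FPKM in the WT libraries, and Acta1, skeletal actin, was listed at 0 in both KO libraries, with 2.18 FPKM in WT replicate 1 and 0 in WT replicate 2. The 4 muscle markers summed to 0 and 0.160 FPKM in KO and 6.92 and 0 FPKM in WT. Their part in the values of the muscle forms was not tested. Cox7a1, unlike these markers, was lowest in WT replicate 1. The testis forms Cox7b2 and Cox8c were listed at 0 in all 4 libraries. Cox6b2, also a testis form, had 1.82 and 1.07 FPKM in the KO libraries, against 1.61 and 1.54 FPKM in the WT libraries over 6 rows, 0.234% to 0.327% of the sum with Cox6b1. Its general counterpart Cox6b1 had 556 and 455 FPKM in the KO libraries, against 522 and 548 FPKM in the WT libraries. The lung form Cox4i2 was listed at 0 in replicate 1 of either group and had 0.163 FPKM in KO replicate 2 and 0.244 FPKM in WT replicate 2. Ndufa4l2, a paralog of Ndufa4 known to be induced by hypoxia, had 1.46 and 0.627 FPKM in the KO libraries, against 0.882 and 0.853 FPKM in the WT libraries, just under the 1 FPKM limit at a mean of 0.954 FPKM. The lowest gene inside that limit was Cox6b2, with a mean of 1.51 FPKM.

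**Figure D3:**
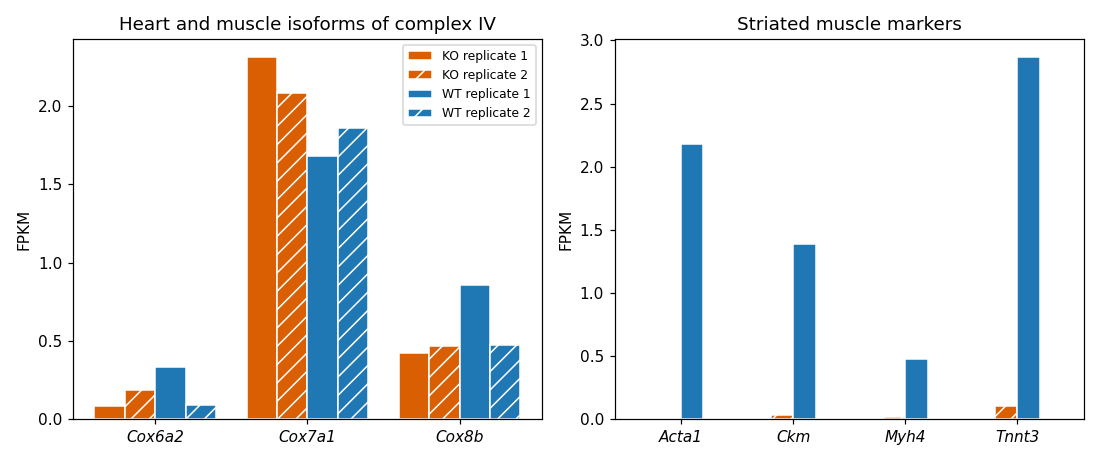
FPKM in each library of the heart and muscle isoforms of complex IV (left) and of 4 striated muscle markers (right), with KO bars in orange, WT bars in blue and replicate 2 hatched. Cox6a2, Cox8b and all 4 markers are highest in WT replicate 1, where Tnnt3 reaches 2.87 FPKM, while Cox7a1 is highest in the KO libraries.

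Complex V, the ATP synthase, had 13 negative and 4 positive differences (median -0.084), and none passed. In both KO libraries 5 of its 17 genes were lower and none was higher, beside 16.4% and 22.4% of all genes tested. Of the 5, 3 encode the catalytic head. Atp5b, the beta subunit that makes ATP (chromosome 10, 128083307 to 128090388), had 736 and 663 FPKM in the KO libraries, against 819.7 and 785 FPKM in the WT libraries, a mean 12.8% lower (log2 difference -0.20, SE 0.14, limma adjusted p = 0.774). Atp5a1, the alpha subunit beside it, had 420.1 and 419 FPKM in the KO libraries, against 464 and 473 FPKM in the WT libraries (419 ± 1.11 FPKM in KO and 469 ± 5.77 FPKM in WT (SD, n = 2 each); log2 difference -0.16, SE 0.12, limma adjusted p = 0.794). The KO libraries of Atp5a1 differed from each other by under 1% and lay below both WT libraries. Atp5c1, the gamma subunit that turns inside the head, had 244 and 218 FPKM in the KO libraries, against 252 and 255 FPKM in the WT libraries, and Atp5f1, subunit b of the stator, had 222 and 192 FPKM in the KO libraries, against 226 and 231 FPKM in the WT libraries. The small head subunits did not share this: Atp5d had 295 and 276 FPKM in the KO libraries, against 273 and 279 FPKM in the WT libraries, and Atp5e had 510.0 and 434 FPKM in the KO libraries, against 417 and 458 FPKM in the WT libraries, both overlapping. The rotor ring is built from subunit c, which Atp5g1, Atp5g2 and Atp5g3 encode with the same mature protein and different import sequences. Atp5g3 had 799 and 692 FPKM in the KO libraries, against 791 and 819.5 FPKM in the WT libraries, Atp5g1 309.2 and 238.9 FPKM in KO, against 284.6 and 308.9 FPKM in WT, and Atp5g2 272 and 221 FPKM in KO, against 239 and 252 FPKM in WT. All 3 were lowest in KO replicate 2 and overlapped. Atp5g3 made up 57.9% and 60.1% of the summed subunit c level in KO, against 60.2% and 59.4% in WT, so the mix of the 3 genes was nearly constant. Atp5k, which with Atp5l serves dimer formation, had the widest gap between the KO libraries in FPKM, 952 against 671. Atp5sl, named for similarity to Atp5s, had 8.25 and 8.38 FPKM in the KO libraries, against 9.50 and 9.07 FPKM in the WT libraries, while Atp5s had 3.51 and 4.44 FPKM in KO, against 3.94 and 4.18 FPKM in WT.

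Across complexes, the catalytic core and the accessory subunits were counted apart. The core means the 7 nuclear core subunits of complex I, the 4 of complex II, the Rieske protein, and the head and rotor ring of complex V. Uqcrc1 and Uqcrc2, called core proteins by tradition, carry no electrons and were counted as accessory. Of the 20 core genes 16 had a negative difference (median -0.13), 12 were lower in both KO libraries and none was higher in both. Of the 54 accessory subunits 32 had a negative difference (median -0.022), 7 were lower and 5 higher in both. Over all genes tested the shares were 16.4% lower and 22.4% higher. With KO replicate 2 left out the core median was -0.023, and it was -0.20 without KO replicate 1. Leaving out the same libraries, the accessory median was 0.11 and -0.12. Pooled over complexes, the core therefore lay below the accessory subunits in either KO library. Its own distance from WT came mostly from KO replicate 2. The classes differ in make-up: complex II is all core, and no complex IV gene was counted as core. Core and accessory medians were -0.13 and -0.014 in complex I, and -0.12 and -0.077 in complex V. In complex III the Rieske protein had -0.12 and the accessory median was -0.020. In KO replicate 2 alone the complex V order turned, with -0.19 for the core and -0.23 for accessory subunits.

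Transcript length moved with the same split. The median transcript was 1198 nt long for the core and 652 nt for accessory subunits. Of the 33 members with a transcript of 1000 nt or more, 22 were lower and 1, Uqcrq, was higher in both KO libraries (median difference -0.13). Of the 53 shorter ones 1 was lower and 5 were higher in both (median -0.014). Within the core, 12 of 13 longer transcripts and 0 of 7 shorter ones were lower in both KO libraries. Among accessory subunits these were 6 of 11 and 1 of 43. Under 1000 nt the median difference was -0.00033 for the core and -0.014 for accessory subunits. At 1000 nt or more the medians were -0.15 and -0.095. Across the 86 genes, which share the same 4 libraries, Pearson's r between the log2 difference and log2 length was -0.51. For KO replicate 1 alone against the WT mean r was -0.65, and for KO replicate 2 -0.22. Over all genes tested the relation was weaker and of the same sign, with r at -0.12 over 9736 genes. It was -0.22 over 1320 genes with a mean of at least 50 FPKM. Against the WT mean, r over the 9736 genes was -0.23 for KO replicate 1 and 0.0064 for KO replicate 2. Over the 1320 genes these were -0.26 and -0.13. Among the highly expressed genes the median difference was 0.062 for transcripts under 1000 nt, of which 28.8% were higher and 2.46% lower in both KO libraries, and -0.017 for longer ones, of which 17.2% were higher and 21.9% lower. The part of length in the differences between core and accessory subunits was not tested.

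**Figure D4:**
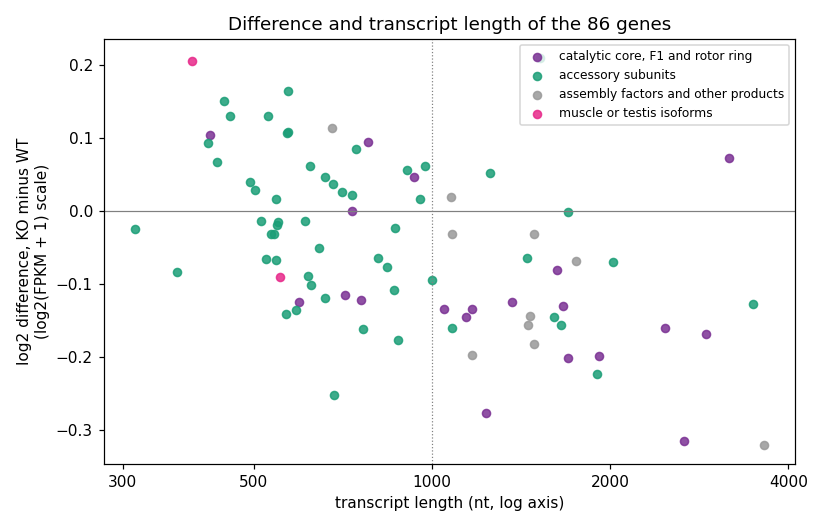
Difference of KO from WT in log2(FPKM + 1) on the vertical axis against the length of the matched transcript (horizontal log axis) for the 86 genes, coloured by role; the dotted line marks 1000 nt. To the right of it 29 of 33 genes lie below 0, and to the left 28 of 53.

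The promoters of nuclear oxidative phosphorylation genes are known for sites of NRF1 (nuclear respiratory factor 1) and of ETS factors such as GABPA, which coordinate them. RefSeq promoter sequences (GRCm38.p6, 250 bases before to 50 after a transcript start) were found for 74 of the 86 genes. The NRF1 motif GCGCA, then any base, then GCGC, searched on both strands, occurred in 19 of the 74 (25.7%), beside 12.5% of the tested genes with a promoter sequence and 5.19% of all genes that have one. The ETS motif CCGGAAG occurred in 17 (23.0%), beside 21.9% and 9.93%. Both motifs were found in 4, Sdhd, Cox6a1, Atp5h and Atp5k. The sterol regulatory element TCACNCCAC, a form of the site that SREBPs bind, matched 0 of the 74, beside 1.53% of the tested genes, and these letters outside this window were not searched. The 19 genes with the NRF1 motif had a median log2 difference of -0.11, 16 of them negative, and the 55 without it -0.031, 35 of them negative. The levels of the factors themselves are given with the regulators. The 5 promoters below show the motif in each complex, for the subunit with a match and the smallest unadjusted p; capitals mark the NRF1 motif. They lie at chr6:24527477-24527776 (-) for Ndufa5, chr9:50603800-50604099 (-) for Sdhd, chr9:108936398-108936697 (+) for Uqcrc1, chr5:115348909-115349208 (-) for Cox6a1 and chr2:10080383-10080682 (-) for Atp5c1, and each is written 5′ to 3′ on its gene's strand.
Ndufa5: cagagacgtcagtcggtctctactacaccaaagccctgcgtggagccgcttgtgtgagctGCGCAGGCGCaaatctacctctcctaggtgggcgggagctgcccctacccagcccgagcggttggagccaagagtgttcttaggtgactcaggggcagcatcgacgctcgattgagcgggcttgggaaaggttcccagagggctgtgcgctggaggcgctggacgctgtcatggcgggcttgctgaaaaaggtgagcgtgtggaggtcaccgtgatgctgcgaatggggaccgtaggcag
Sdhd: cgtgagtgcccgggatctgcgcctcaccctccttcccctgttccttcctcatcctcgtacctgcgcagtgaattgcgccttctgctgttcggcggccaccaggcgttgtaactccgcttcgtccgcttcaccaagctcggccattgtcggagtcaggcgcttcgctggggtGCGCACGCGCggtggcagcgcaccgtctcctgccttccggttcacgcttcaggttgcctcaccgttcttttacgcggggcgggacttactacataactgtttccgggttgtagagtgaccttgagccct
Uqcrc1: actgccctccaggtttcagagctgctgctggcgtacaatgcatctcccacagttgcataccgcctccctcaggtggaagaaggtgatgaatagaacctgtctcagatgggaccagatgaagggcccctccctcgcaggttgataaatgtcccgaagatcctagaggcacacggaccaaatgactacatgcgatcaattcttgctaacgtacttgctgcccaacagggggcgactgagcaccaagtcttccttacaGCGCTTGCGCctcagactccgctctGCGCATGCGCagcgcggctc
Cox6a1: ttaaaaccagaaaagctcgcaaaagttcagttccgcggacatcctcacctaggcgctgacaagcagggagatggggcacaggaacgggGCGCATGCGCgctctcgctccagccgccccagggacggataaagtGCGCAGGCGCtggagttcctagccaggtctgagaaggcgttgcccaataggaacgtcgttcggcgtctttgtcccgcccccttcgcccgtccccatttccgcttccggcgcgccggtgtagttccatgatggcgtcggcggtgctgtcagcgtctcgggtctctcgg
Atp5c1: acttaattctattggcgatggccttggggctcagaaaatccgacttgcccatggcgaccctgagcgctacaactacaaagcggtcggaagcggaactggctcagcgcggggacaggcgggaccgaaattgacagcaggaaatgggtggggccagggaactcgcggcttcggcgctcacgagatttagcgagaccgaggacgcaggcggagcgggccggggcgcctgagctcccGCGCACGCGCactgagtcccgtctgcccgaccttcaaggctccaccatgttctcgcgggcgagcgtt
Sdhd, Uqcrc1 and Atp5c1 were lower in both KO libraries and Cox6a1 overlapped, as given above. Ndufa5, an accessory subunit of the matrix arm, had 114 and 88.3 FPKM in the KO libraries, against 115 and 112 FPKM in the WT libraries and overlapped too. Uqcrc1 and Cox6a1 each hold the motif at 2 places, and they differed in sign.

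Related genes were read from 9 further lists in the same fit, 165 genes in all, and none passed the limma threshold in either direction. The regulators of mitochondrial biogenesis had a median of -0.044 over 17 tested. Of the 17, 6 were lower and 0 higher in both KO libraries, beside 16.4% and 22.4% of all genes tested. Nrf1 had 3.16 and 3.03 FPKM in KO, against 3.28 and 2.67 FPKM in WT, Tfam, which maintains and transcribes mitochondrial DNA, had 9.17 and 10.4 FPKM in KO, against 10.7 and 9.62 FPKM in WT, and both overlapped. Gabpa had 7.59 and 8.18 FPKM in KO, against 9.33 and 9.34 FPKM in WT (log2 difference -0.22, limma adjusted p = 0.659), and the groups did not overlap. Ppargc1a, the coactivator PGC-1α that drives mitochondrial biogenesis and fasting metabolism, was below the 1 FPKM limit, with 0.298 and 0.374 FPKM in KO, against 0.654 and 0.704 FPKM in WT. Cytochrome c (Cycs), which carries electrons between complexes III and IV, had 74.0 and 56.1 FPKM in KO, against 83.6 and 79.1 FPKM in WT (log2 difference -0.33, SE 0.15, limma adjusted p = 0.655). Etfdh, which feeds electrons from fatty acid oxidation into the chain, had 98.4 and 100.01 FPKM in KO, against 115 and 117 FPKM in WT (log2 difference -0.22, SE 0.10, limma adjusted p = 0.660). Both were lower in both KO libraries, and are 2 of the 3 such genes among 8 electron carriers. Of the 8, 1 was higher in both. Over all genes tested, 16.4% were lower and 22.4% higher in both. Cyc1, the cytochrome c1 subunit of complex III that the symbol rule leaves out, had 218 and 183 FPKM in KO, against 228 and 216 FPKM in WT and overlapped.

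Of the carriers and porins, Ucp2, an inner-membrane carrier named for uncoupling and also abundant in macrophages, had 19.9 and 34.0 FPKM in KO, against 11.9 and 10.2 FPKM in WT (log2 difference 1.17, SE 0.24, limma adjusted p = 0.308). Ucp2 was higher in both KO libraries and highest in KO replicate 2, the library with the highest Kupffer cell marker sum, whose part in the level of Ucp2 was not tested. Slc25a5, the main ADP/ATP carrier of these livers, had 419.8 and 349 FPKM in KO, against 432 and 429.5 FPKM in WT, and Vdac1, a porin of the outer membrane, had 118 and 99.7 FPKM in KO, against 129 and 123 FPKM in WT. Among coenzyme Q genes 4 of 13 were higher and 4 lower in both KO libraries, beside 22.4% and 16.4% of all genes tested. Coq10b, a coenzyme Q binding protein, had 9.11 and 9.09 FPKM in KO, against 6.66 and 6.48 FPKM in WT (log2 difference 0.42, SE 0.099, limma adjusted p = 0.403), and Pdss1, which makes the side chain, had 1.66 and 1.36 FPKM in KO, against 1.99 and 2.68 FPKM in WT. For assembly of complexes II and III, Lyrm7, which loads the Rieske protein, had 0.533 and 0.337 FPKM in KO, against 2.48 and 1.57 FPKM in WT (log2 difference -1.06, SE 0.17, limma adjusted p = 0.203), below WT in both KO libraries at a very low level. For complex IV assembly, Pet100 had 14.9 and 13.0 FPKM in KO, against 11.2 and 10.5 FPKM in WT, and Cox11, a copper chaperone, had 5.39 and 4.29 FPKM in KO, against 6.52 and 6.19 FPKM in WT, on opposite sides. Of 7 tested assembly genes of complexes II and III, 2 were lower and 1, Uqcc2, was higher in both KO libraries. Uqcc2 had 75.8 and 67.3 FPKM in KO, against 54.7 and 64.1 FPKM in WT. Of 18 tested for complex IV assembly, 5 were lower and 1, Pet100, was higher in both. Over all genes tested these shares were 16.4% and 22.4%. The 76 genes of the mitochondrial ribosome had a median of 0.018. Of the 76, 16 were higher and 10 lower in both KO libraries, beside 22.4% and 16.4% of all genes tested. The median of the ribosomal genes relative to WT was 0.12 for KO replicate 1 and -0.063 for KO replicate 2, on opposite sides as for the oxidative phosphorylation genes. Complex V assembly genes and its inhibitor Atpif1, with 6 tested, and 13 cristae and cardiolipin genes had medians of -0.080 and -0.099. The subunits encoded by mitochondrial DNA were looked for by symbol and 0 were found among the listed genes, so they were not analysed here.

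The values above are sums over the transcript rows of a gene, which matters for 14 of the 86 members. In Atp5j, coupling factor 6 of the stalk, the row NM_001302215 had 13.6 and 13.5 FPKM in KO, against 45.7 and 11.0 FPKM in WT, while the row NM_001302214 had 237 and 194 FPKM in KO, against 207 and 235 FPKM in WT. NM_001302215 stood out in WT replicate 1, while NM_001302214 was lowest in KO replicate 2. The sum over 5 rows was 308 and 264 FPKM in the KO libraries, against 297 and 299 FPKM in the WT libraries, lowest in KO replicate 2. Ndufs1 has 4 rows. Its main row NM_145518 had 24.4 and 24.4 FPKM in KO, against 27.0 and 25.8 FPKM in WT, a smaller gap than that of the sum. The row NM_001160040 had 5.67 and 11.2 FPKM in KO, against 13.1 and 11.0 FPKM in WT, lowest in KO replicate 1, and the row NM_001160039 had 8.25 and 3.03 FPKM in KO, against 11.0 and 8.16 FPKM in WT, lowest in KO replicate 2. The difference of Ndufs1 thus rested in part on minor rows that did not move together. With the highest row of each gene in place of the sum its log2 difference was -0.11, and that of Cox6b2 turned to 0.43.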

How the data were processed

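RNA of 4 mouse liver libraries was measured, and groups and replicate numbers came from the sample titles. For each RefSeq transcript the authors deposited an FPKM in every library, per the file headers. Bowtie, TopHat and the mm10 build are named in the submitters' processing notes; which program and annotation gave the FPKM values, and whether strand was used, is not given in the sources used here. FPKM hides the number of fragments. Steps in low values of single-row genes implied 20.5 to 22.8 M fragments, with 50.9% to 53.4% of low values within 0.1 of a whole fragment, too few for a count test. The 33170 rows were summed per gene number. An FPKM of 0 was read only as listed at 0. Genes with processed pseudogenes or close paralogs, as many here have, and short transcripts are uncertain where reads can be shared.

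All 9820 genes with a mean of at least 1 FPKM were fitted with limma 3.58.1 in R 4.3.3 on log2(FPKM + 1) with an intensity trend, Benjamini-Hochberg adjustment over all of them and a threshold of 0.05. The method was tested on simulated data. Log2 differences are KO minus WT and understate low genes. An exact permutation test of 2 against 2 libraries cannot go below 0.333, so none was used. Names, gene numbers and mm10 coordinates came from a RefSeq table of the same assembly (GRCm38.p6), lengths from GENCODE transcripts matched by RefSeq accession. Complexes and roles were assigned by hand, with Ndufa4 placed in complex IV. Genes were named by a rule: core subunits, isoform pairs, up to 5 non-overlapping members per complex and direction, and the highest and lowest member; other members with values were chosen after these were seen. From related lists up to 3 genes by p were named; Nrf1, Tfam, Cyc1, Slc25a5 and Ppargc1a were chosen afterwards. The values of 1 member are not reported here, though it is counted with the rest. Members and lists were chosen with earlier results of these data known. As alternatives, the pseudocount was set to 0.1 or 0.5, the filter dropped or raised to 5 FPKM, and further fits used 2 scalings, no trend, a replicate block, the highest row, each library left out, and subunits only. Summaries were made with pandas 2.3.3 and numpy 2.4.6 in python 3.11.15, figures with matplotlib 3.10.9.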

Additional observations from a re-analysis of the deposited data

How the results depend on the processing

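None of the 86 genes passed the limma threshold under any of the 13 alternatives run for them; the smallest adjusted p of any of them was 0.0646, without KO replicate 1, where 15 of the 86 had an unadjusted p under 0.05, beside 1517 of all 9820 genes. The count over all genes, 7, was 11 with a pseudocount of 0.1, 0 without a filter (1233 genes at an unadjusted p under 0.05), 3 at a minimum of 5 FPKM, 4 with quantile normalization and 4 with the highest row. It ran from 1 without WT replicate 1 to 306 without KO replicate 1, with 4 without WT replicate 2 and 117 without KO replicate 2. Replicate numbers are shared by KO and WT, but nothing says that they pair the samples (correlation of replicate differences between the groups 0.17 over 9820 genes); with the replicate block 19 genes passed and no member did. With 1 library left out the median difference ranged over -0.15 to 0.067 for all members, -0.14 to 0.042 for complex I, -0.21 to -0.047 for complex II, -0.17 to 0.13 for complex III, -0.10 to 0.11 for complex IV and -0.17 to 0.046 for complex V, each highest without KO replicate 2. The other alternatives moved these medians by less than the spread between replicates, though the complex IV median turned to 0.0076 with the highest row. Without WT replicate 2 the medians of complexes III and IV were also positive, at 0.014 and 0.034. Of 44 named members 27 kept their sign under every alternative. The other 17 changed sign with a library left out: Atp5g1 -0.31 to 0.060, Atp5g2 -0.15 to 0.15, Atp5k -0.34 to 0.17, Atp5s -0.17 to 0.10, Cox5a -0.13 to 0.027, Cox5b -0.096 to 0.049, Cox6a1 -0.015 to 0.23, Cox6b1 -0.23 to 0.056, Cox6b2 -0.32 to 0.13, Cox7a2 -0.062 to 0.16, Cox7a2l -0.054 to 0.092, Cox8a -0.11 to 0.077, Ndufa4 -0.14 to 0.11, Ndufb9 -0.11 to 0.16, Ndufs7 -0.28 to 0.042, Ndufs8 -0.023 to 0.21 and Sdhc -0.047 to 0.19. Beyond these, Atp5g2 was 0.017 with quantile normalization, Cox7a2l -0.0068 with upper-quartile scaling and Cox6b2 0.43 with the highest row. The cause was not tested. A lone library in a group is assumed to vary like the other group.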
